A study of Mus musculus with 6 samples.

Results

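The genes described here are 10 classical markers and drivers of the epithelial to mesenchymal transition, out of 18193 genes measured on the arrays: the 3 cadherin genes Cdh1, Cdh2 and Cdh3, the intermediate filament gene Vim, and the 6 transcription factor genes Snai1, Snai2, Twist1, Twist2, Zeb1 and Zeb2. The members were given as a list of symbols. Each was read from the probe set that carried its symbol alone and had the highest mean over the 6 arrays, without regard to genotype. All 10 were measured, 4 of them by 1 probe set and 6 by several, 22 probe sets in all.

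The 3 mice of the EKO group lacked E-FABP, a fatty acid carrier of the epidermis, and were set against 3 wild-type (WT) mice. Both groups had received DMBA, the carcinogen that initiates tumours in this skin model, together with the tumour promoter TPA over 5 months, and their skin tumours were digested to single cells before RNA was taken. Expression was measured on Affymetrix 3' arrays and is given on the log2 scale of RMA, a procedure that removes background, brings the arrays to a common distribution and combines the probes of a probe set into 1 value. The labels state neither the strain and age of the mice nor how E-FABP was removed. The labels call the cells keratinocytes and the design text calls them tumour cells.

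The arrays had medians of 5.41 to 5.43, and Fabp5, which encodes E-FABP, averaged 8.16 ± 0.166 in EKO and 14.85 ± 0.0730 in WT tumours (SD, n = 3 each), so that all 6 arrays matched their labels. Keratinocyte genes gave strong signals, Krt14 averaging 14.71 in EKO and 14.75 in WT tumours. The fibroblast collagen gene Col3a1 was also bright, at 13.23 in EKO and 13.43 in WT tumours. Each array measured the RNA of many digested tumour cells together, so fewer cells of a type and less RNA per cell cannot be told apart.

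In the epithelial to mesenchymal transition, epithelial cells loosen their junctions and take on the shape and motility of mesenchymal cells. E-cadherin, the product of Cdh1, joins epithelial cells to each other at adherens junctions, and its loss, often with a gain of N-cadherin (Cdh2) and vimentin, is the usual mark of the transition. The Snail, Twist and Zeb factors bind E-box sequences and repress E-cadherin. In DMBA and TPA carcinogenesis this transition is known from the spindle cell carcinomas that can arise late from papillomas and squamous carcinomas, while in normal skin fibroblasts, endothelial cells and leukocytes carry vimentin and several of these factors.

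The Zeb genes are held down in epithelia by the miR-200 family of microRNAs, whose mature sequences are shown because Zeb2 had the largest difference among the 10 genes. The sequences are from RefSeq (GRCm38.p6), 5′ to 3′, with the seed, bases 2 to 8, in capitals. The first 3 share the seed AAUACUG and the last 2 share AACACUG. Mature microRNAs were not measured on these arrays.
mmu-miR-200b-3p: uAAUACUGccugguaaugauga
mmu-miR-200c-3p: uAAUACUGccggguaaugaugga
mmu-miR-429-3p: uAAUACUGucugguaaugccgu
mmu-miR-200a-3p: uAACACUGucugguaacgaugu
mmu-miR-141-3p: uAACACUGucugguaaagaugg

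Promoter sequences are described for 5 members, Vim, Snai1, Twist1, Twist2 and Zeb2. No promoter entry was found for Cdh1, Cdh3 and Snai2, and the windows of Cdh2 and Zeb1 were left out. The counts for members therefore do not cover the whole list. The 250 bases before each of their annotated starts, 8 windows of which 4 belong to Zeb2 and some overlap, were searched for the E-box CACCTG or its reverse complement CAGGTG, the form bound by Snail and Zeb factors. It stood in 1 of the 8 windows, that of Snai1, 126 bases before the start, against 17.2% of 32817 such windows of all genes. The windows are printed for Zeb2, the member that differed most, at its first start (chr2:45117443-45117692, minus strand), and for Snai1 (chr2:167537945-167538194, plus strand), both in GRCm38.p6 and 5′ to 3′, with the E-box in capitals.
Zeb2: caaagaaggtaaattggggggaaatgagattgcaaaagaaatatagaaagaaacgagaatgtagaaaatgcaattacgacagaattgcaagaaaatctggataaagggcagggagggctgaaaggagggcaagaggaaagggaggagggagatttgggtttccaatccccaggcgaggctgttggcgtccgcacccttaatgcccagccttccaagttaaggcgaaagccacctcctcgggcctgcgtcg
Snai1: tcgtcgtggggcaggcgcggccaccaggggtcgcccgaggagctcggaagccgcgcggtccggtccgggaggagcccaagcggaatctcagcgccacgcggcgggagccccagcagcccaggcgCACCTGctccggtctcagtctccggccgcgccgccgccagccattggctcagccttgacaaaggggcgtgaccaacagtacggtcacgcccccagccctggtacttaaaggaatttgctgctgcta

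None of the 10 genes passed the test between EKO and WT tumours. Zeb2 had a lower mean in EKO tumours and Cdh3, the P-cadherin gene, a higher one, and these were the 2 members whose EKO and WT values did not overlap. Cdh1 had nearly equal means in EKO and WT tumours, Vim and Cdh2 had lower means in EKO tumours with overlapping values, and the differences of the factors other than Zeb2 lay between -0.22 and 0.09 on the log2 scale. The test was limma's moderated test fitted over all 18193 genes, two-sided, with Benjamini-Hochberg adjustment and a threshold of 0.05, and differences are EKO minus WT throughout. It called 0 of the 10 members and 0.0055% of all genes, which is Fabp5 alone. At an unadjusted p under 0.05 it took 2 of the 10, Zeb2 and Cdh3, against 7.13% of all genes (3.44% higher and 3.7% lower in EKO tumours). Means were lower in EKO tumours for 6 of the 10, against 50% of all genes. No overlap between EKO and WT values was seen for 2 of the 10, against 12% of all genes. Cdh3 was the 1 member with higher values and no overlap, against 5.78% of all genes, and Zeb2 the 1 member with lower values and no overlap, against 6.19%. With only 10 genes, counts of 1 and 2 are no result about the list as a whole.

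**Figure D1:**
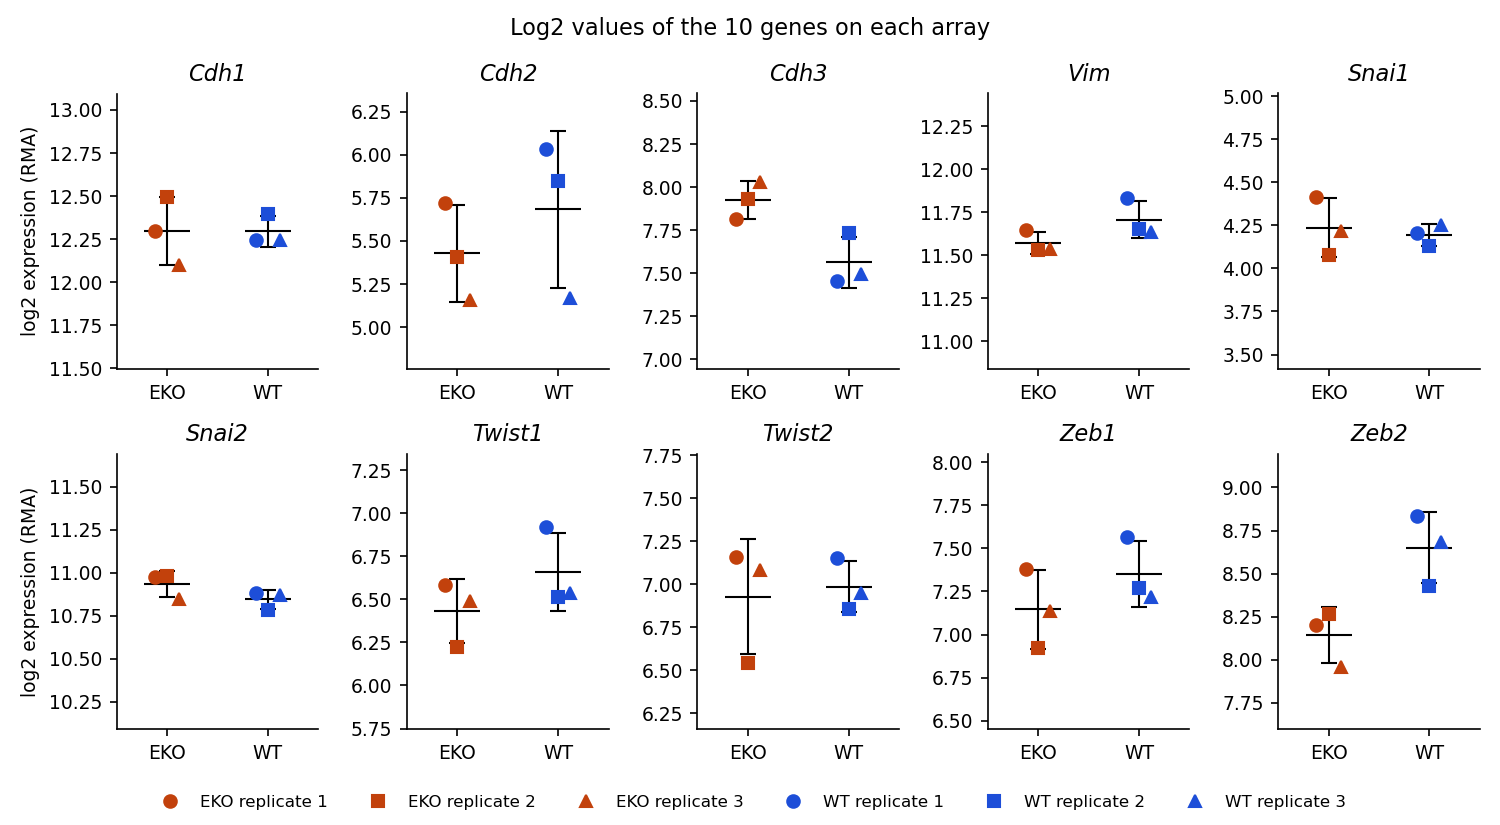
Log2 expression (RMA, y axis) of each of the 10 genes on the 3 EKO and the 3 WT arrays (x axis), with every panel spanning the same range. Points are arrays, horizontal bars are group means and whiskers are 1 SD (n = 3). Zeb2 lies below and Cdh3 above the WT values in all EKO tumours, and the groups of the other 8 genes overlap.

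The epithelial cadherin Cdh1 was bright in every tumour and did not separate the genotypes. It read 12.30, 12.49 and 12.10 in EKO replicates 1, 2 and 3, against 12.24, 12.40 and 12.24 in WT replicates 1, 2 and 3. The highest and the lowest value were both in EKO tumours. The difference was 0.0026 (SE 0.119, 95% interval -0.28 to 0.28, limma adjusted p = 0.999). The interval leaves room for a difference of up to 0.28 in either direction on the log2 scale.

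Cdh3 encodes P-cadherin, the adherens junction cadherin of basal keratinocytes and the hair follicle, and its values were higher in EKO tumours. They were 7.81, 7.93 and 8.03 in EKO replicates 1, 2 and 3, against 7.46, 7.73 and 7.50 in WT replicates 1, 2 and 3. The lowest EKO value lay 0.08 above the highest WT value. The difference was 0.36 (SE 0.109, 95% interval 0.10 to 0.62), which is 1.29-fold by the means, and it did not pass (limma adjusted p = 0.621). A dimmer Cdh3 probe set also had higher values in EKO tumours without overlap, 5.45, 5.31 and 5.32 in EKO replicates 1, 2 and 3, against 5.24, 5.10 and 5.19 in WT replicates 1, 2 and 3. Its difference was 0.18 in the fit over all probe sets (limma adjusted p = 0.752).

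Cdh2, the N-cadherin gene, gave low signals that scattered within each genotype. It read 5.72, 5.41 and 5.16 in EKO replicates 1, 2 and 3, against 6.03, 5.85 and 5.17 in WT replicates 1, 2 and 3. The values of both replicates 3 were nearly the same, and in 3 of the 6 arrays the gene lay below the array's median. The difference was -0.25 (SE 0.244, limma adjusted p = 0.855), and its 95% interval, -0.83 to 0.32, was the widest of the 10. A second, dimmer probe set had a difference of -0.19.

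Vim encodes vimentin, the intermediate filament protein of mesenchymal cells, and all 3 of its probe sets had lower means in EKO tumours. The brightest read 11.65, 11.53 and 11.54 in EKO replicates 1, 2 and 3, against 11.83, 11.65 and 11.64 in WT replicates 1, 2 and 3. EKO replicate 1 lay among the WT values, and the other EKO tumours lay below them. The difference was -0.14 (SE 0.0922, 95% interval -0.35 to 0.08, limma adjusted p = 0.802).

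The second Vim probe set separated the genotypes without overlap. It read 11.20, 10.94 and 11.34 in EKO replicates 1, 2 and 3, against 11.79, 11.36 and 11.52 in WT replicates 1, 2 and 3, with a difference of -0.40 (SE 0.146, limma adjusted p = 0.671 in the fit over all probe sets). The third had a difference of -0.20 with overlapping values. The name of the brightest Vim probe set ends in _x_at, which on Affymetrix arrays marks probes that may also bind other transcripts, and the second ends in _at without that mark. The size of the vimentin difference therefore depended on the probe set, while none of them passed.

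**Figure D2:**
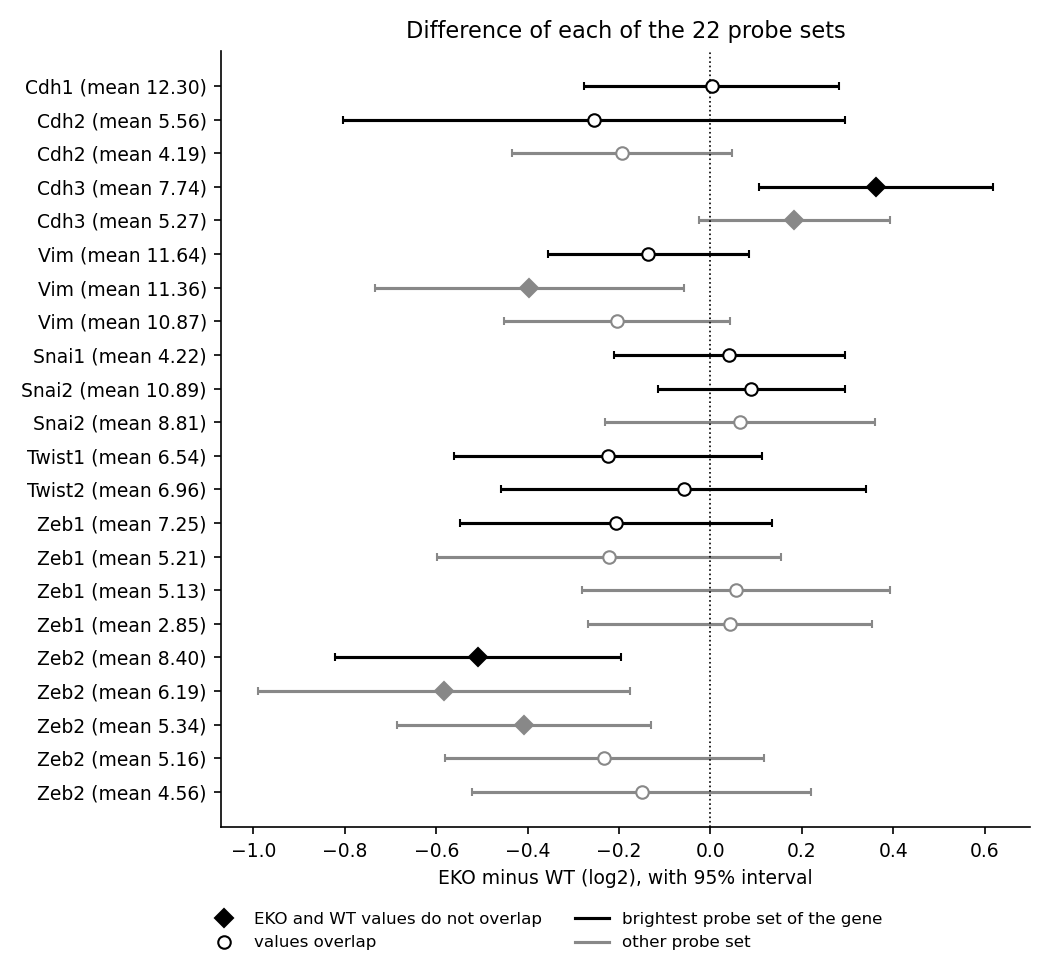
EKO minus WT difference on the log2 scale (x axis) with its 95% interval for each of the 22 probe sets of the 10 genes (y axis, with the mean over the 6 arrays), from the limma fit over all probe sets. Filled diamonds mark probe sets whose EKO and WT values do not overlap, which are 3 of Zeb2, 1 of Vim and both of Cdh3. The share without overlap over all probe sets was not counted.

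Zeb2, a zinc finger repressor of E-cadherin that is also made in macrophages and other leukocytes, had the largest difference of the 10 genes. It read 8.20, 8.26 and 7.96 in EKO replicates 1, 2 and 3, against 8.83, 8.43 and 8.69 in WT replicates 1, 2 and 3. All EKO values lay below all WT values, with a gap of 0.16 between the nearest. The difference was -0.51 (SE 0.136, 95% interval -0.83 to -0.19), a ratio of 0.703 of EKO over WT on the linear scale, and it did not pass (limma adjusted p = 0.621). In size it stood at percentile 96.1 of all genes, where the median size was 0.0945.

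All 5 Zeb2 probe sets had lower means in EKO tumours, and 3 of them had no overlap. The second brightest read 6.19, 5.90 and 5.60 in EKO replicates 1, 2 and 3, against 6.75, 6.36 and 6.33 in WT replicates 1, 2 and 3 (difference -0.58, limma adjusted p = 0.628 in the fit over all probe sets). The third brightest had a difference of -0.41, and the 2 dimmest had differences of -0.23 and -0.15 with overlapping values. The probe sets read the same RNA on the same arrays and are no further replicates. How many of all probe sets had no overlap was not counted.

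Zeb1, the closest relative of Zeb2, had a smaller difference and overlapping values. It read 7.38, 6.92 and 7.14 in EKO replicates 1, 2 and 3, against 7.57, 7.27 and 7.22 in WT replicates 1, 2 and 3 (difference -0.21, SE 0.149, limma adjusted p = 0.811). EKO replicate 1 lay between the WT values, and the other EKO tumours lay below all of them. Of its 4 probe sets 2 had lower and 2 higher means in EKO tumours, and 3 of the 4 were dim. The dim ones averaged 5.21 over the 6 arrays, with a difference of -0.22, and 5.13 and 2.85, with differences of 0.06 and 0.04. Whether Zeb1 and Zeb2 differ in their response was not tested.

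The Snail factors had slightly higher means in EKO tumours. Snai2, which encodes Slug, a factor that basal keratinocytes make in normal skin and during wound closure, was bright, reading 10.98, 10.98 and 10.85 in EKO replicates 1, 2 and 3, against 10.88, 10.78 and 10.87 in WT replicates 1, 2 and 3. The groups overlapped through EKO replicate 3, and the difference was 0.09 (SE 0.0843, 95% interval -0.11 to 0.29, limma adjusted p = 0.852). These values are from a probe set whose name ends in _x_at, the mark explained above for Vim. The second Snai2 probe set, without that mark, was dimmer, averaging 8.84 in EKO and 8.78 in WT tumours. Its difference was 0.06, with overlapping values. How bright Snai2 read therefore depended on the probe set. Snai1, the founding Snail gene, lay below the median of every array, between 4.08 and 4.42 in EKO and between 4.13 and 4.25 in WT tumours. The Snai1 difference of 0.04 (limma adjusted p = 0.951) says little, because RMA narrows differences at low signals and the deposited values carry no detection calls.

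The basic helix-loop-helix factors Twist1 and Twist2, which are made in dermal fibroblasts, had lower means in EKO tumours and overlapping values. Twist1 read 6.58, 6.22 and 6.49 in EKO replicates 1, 2 and 3, against 6.92, 6.51 and 6.54 in WT replicates 1, 2 and 3. The groups overlapped through EKO replicate 1, and the difference was -0.22 (SE 0.147, limma adjusted p = 0.792). Twist2 ranged from 6.54 to 7.16 in EKO and from 6.86 to 7.15 in WT tumours, with a difference of -0.06 (SE 0.176, limma adjusted p = 0.957).

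Single tumours stood at the ends of several of these ranges. WT replicate 1 had the highest value of the 6 arrays for 5 of the 10 genes, Cdh2, Vim, Twist1, Zeb1 and Zeb2. EKO replicate 2 had the lowest for 5, Vim, Snai1, Twist1, Twist2 and Zeb1, and the highest for Cdh1 and Snai2. How often these arrays stood highest or lowest over all genes was not counted, so this is no trait of the 10 genes. Without EKO replicate 2 the difference of Twist2 was 0.13 and that of Cdh1 was -0.10, and without WT replicate 1 the difference of Vim was -0.07 and that of Zeb2 was -0.42.

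No gene that works with the cadherins passed the test. Of 12 cadherin partners, the catenins, nectins and other adherens junction proteins, 11 had higher means in EKO tumours, where 50% of all genes had lower means, and the median difference was 0.13 against 0.00014 over all genes. Higher values without overlap were seen for 3 of the 12, against 5.78% of all genes. The mean of the list, as a difference from the mean of the 6 arrays, was 0.13, 0.09 and -0.04 in EKO replicates 1, 2 and 3, against -0.18, -0.09 and 0.09 in WT replicates 1, 2 and 3. The genotypes overlapped in this mean, WT replicate 3 lying above EKO replicate 3. Jup, which encodes plakoglobin, had a difference of 0.26, the junction scaffold gene Tjp1 one of 0.19, Ajuba one of 0.17 and the p120 catenin gene Ctnnd1 one of 0.13 (limma adjusted p from 0.693 to 0.837 for these 4). The beta-catenin gene Ctnnb1 averaged 13.15 in EKO and 13.15 in WT tumours.

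Other cadherins went both ways, 8 of 16 measured with higher and 8 with lower means in EKO tumours, and none passed. Without overlap, 2 had higher values in EKO tumours, Cdh7 and Cdh8, against 5.78% of all genes. Cdh19 was the 1 with lower values, against 6.19%. Cdh19, a cadherin of Schwann and neural crest cells, had lower values in EKO tumours without overlap, 4.95, 5.35 and 5.12 in EKO replicates 1, 2 and 3, against 6.22, 5.53 and 5.40 in WT replicates 1, 2 and 3 (difference -0.58, limma adjusted p = 0.665). Cdh8 had a difference of 0.23, Cdh16 one of -0.18 and Cdh4 one of -0.16. Cdh8 lay below the lower quartile of all 6 arrays, and Cdh19 below the array's median in 4 of the 6.

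Factors that hold the epithelial state were measured beside the transition factors. Of 15 epithelial state genes 10 had higher means in EKO tumours, with a median of 0.05, and none passed. Ovol2, which encodes a repressor of Zeb1 in epithelia, read 5.66, 5.53 and 5.81 in EKO replicates 1, 2 and 3, against 5.36, 5.31 and 5.38 in WT replicates 1, 2 and 3. All EKO values lay above all WT values (difference 0.32, SE 0.0972, limma adjusted p = 0.625). Ovol2 was the 1 gene of the 15 without overlap, against 5.78% of all genes with higher values in EKO tumours and no overlap. Its signals were low, below the array's median in 3 of the 6 arrays, those of the WT tumours. The related gene Ovol1 had a difference of 0.17, the adhesion molecule gene Epcam one of -0.30 and the tight junction gene Marveld2 one of 0.24, each with overlapping values.

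Among 10 other transition factors measured, 3 had higher and 7 lower means in EKO tumours, the median was -0.06, and all of them overlapped between the genotypes. The mesenchymal homeobox gene Prrx1 had the smallest p, with a difference of -0.39 (limma adjusted p = 0.756), followed by the forkhead gene Foxc1 at -0.35, the homeobox gene Gsc at -0.11 and Sox9 at -0.26. Gsc lay below the lower quartile of every array. Of 8 other intermediate filament genes the muscle desmin gene Des had a difference of -0.52 and Synm one of -0.38, while Nes, the nestin gene, had one of 0.12 and Gfap one of 0.21, and none passed.

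Products of mesenchymal cells went both ways. Of 15 measured 11 had higher and 4 lower means in EKO tumours, with a median of 0.07, and none passed. Mmp2, a matrix protease of stromal cells, read 8.89, 8.65 and 8.77 in EKO replicates 1, 2 and 3, against 9.54, 8.92 and 9.67 in WT replicates 1, 2 and 3 (difference -0.61, limma adjusted p = 0.625). The fibronectin gene Fn1 had a difference of 0.70 (limma adjusted p = 0.673), the collagen gene Col5a2 one of 0.58 and S100a4 one of -0.29, each with overlapping values.

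**Figure D3:**
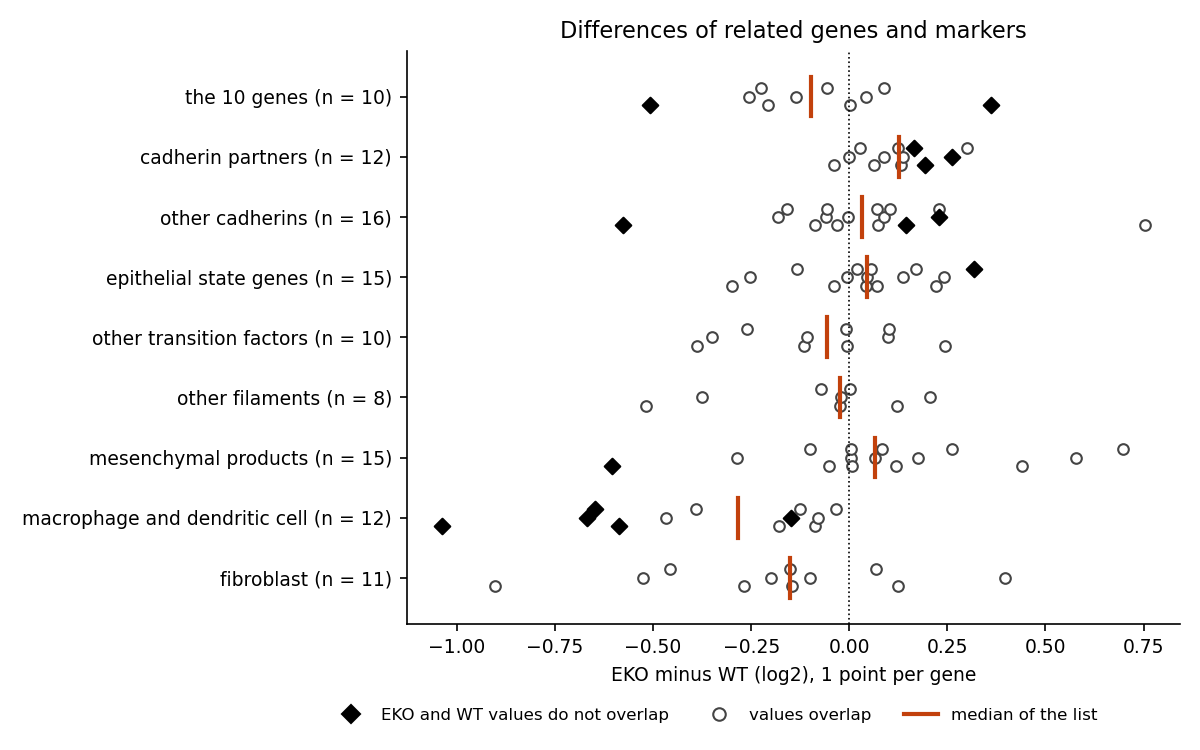
EKO minus WT difference on the log2 scale (x axis) of each gene in 9 lists (y axis, with the number measured). Diamonds mark genes whose EKO and WT values do not overlap, circles those that do, and vertical bars are list medians, which lie between -0.28 for macrophage and dendritic cell markers and 0.13 for cadherin partners.

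Marker genes of macrophages and dendritic cells averaged lower in EKO tumours, as Zeb2 did, and none passed. All 12 were on that side, from -0.03 for Cd68 to -1.04 for the mannose receptor gene Mrc1, with a median of -0.28, where 50% of all genes had lower means. Lower values without overlap were seen for 5 of the 12, Mrc1, C1qa, C1qb, C1qc and Cd74, against 6.19% of all genes. Mrc1 read 7.98, 7.54 and 8.02 in EKO replicates 1, 2 and 3, against 9.16, 8.37 and 9.12 in WT replicates 1, 2 and 3 (limma adjusted p = 0.576). The complement genes C1qc, C1qa and C1qb had differences of -0.65, -0.59 and -0.67 (limma adjusted p from 0.621 to 0.625), while the pan-leukocyte gene Ptprc had one of -0.08. The mean of the list, as a difference from the mean of the 6 arrays, was -0.08, -0.39 and -0.09 in EKO replicates 1, 2 and 3, against 0.34, -0.02 and 0.23 in WT replicates 1, 2 and 3. Among the WT tumours the brightest Zeb2 probe set and the list had the same order, replicate 1 highest and replicate 2 lowest. None of the other Zeb2 probe sets had that order, the second brightest being lowest in WT replicate 3 and the third brightest in WT replicate 1. Among the EKO tumours the brightest Zeb2 probe set was lowest in replicate 3 and the list in replicate 2, where the third brightest Zeb2 probe set was also lowest. The part of macrophages and dendritic cells in the Zeb2 difference was not tested.

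The list means of fibroblast and endothelial markers overlapped between the genotypes. Of 11 fibroblast markers 8 had lower means in EKO tumours, with a median of -0.15. Their list mean was 0.24, -0.33 and -0.21 in EKO replicates 1, 2 and 3, against 0.27, -0.34 and 0.36 in WT replicates 1, 2 and 3. Dcn, the decorin gene, had the smallest p of them with a difference of -0.90 (limma adjusted p = 0.625), followed by Fbln1 at -0.27, Dpt at -0.53 and Lum at -0.46. Of 10 endothelial markers 6 had lower means, with Cldn5 at -0.68, Kdr at 0.42, Tek at -0.35 and Pecam1 at -0.52. The part of these cells in the differences of Vim, Twist1 and Zeb1 was not tested. The 11 measured keratinocyte markers had a median of 0.04, their list mean was -0.20, 0.12 and 0.14 in EKO replicates 1, 2 and 3, against 0.03, 0.02 and -0.11 in WT replicates 1, 2 and 3, and their 4 smallest p belonged to Itga6 (0.26), Krt15 (-0.32), Itgb4 (0.29) and Krt10 (0.14). No marker of any of these lists passed.

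**Figure D4:**
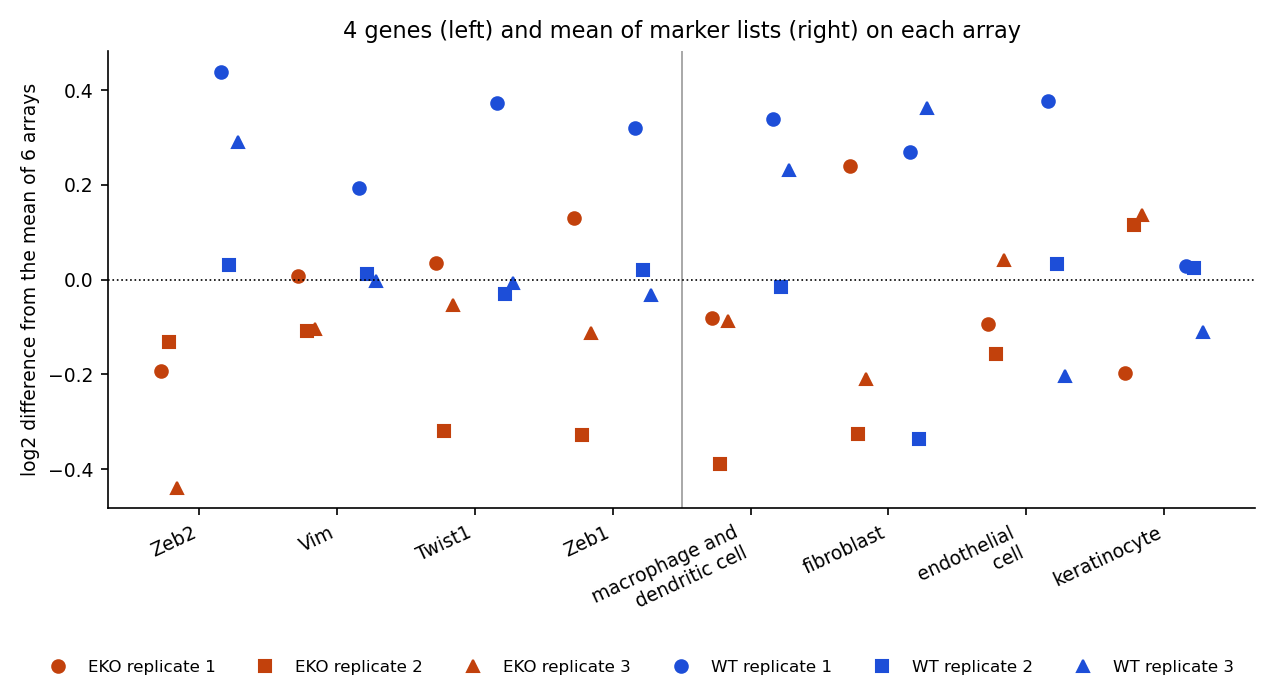
Log2 difference from the mean of the 6 arrays (y axis) on each array for 4 of the genes and for the mean of 4 marker lists (x axis), EKO arrays left of WT arrays within each item. The EKO and WT values of Zeb2 and of the macrophage and dendritic cell list do not overlap, and those of Vim, Twist1, Zeb1 and the other lists do.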

How the data were processed

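Each array held labelled cRNA from the tumour cells of 1 mouse, 3 EKO and 3 WT, grouped by the sample titles. The log2 values deposited by the authors came from RMA, with Partek 6.6 also named, per the submitters' processing notes. They were used as deposited and unfiltered because they carry no detection calls. The labels give no scan date or slide, and name 2 RNA kits. Of 45101 probe sets, 64 controls were left out, and 34945 carried 1 symbol in the platform annotation, 932 several and 9160 none. The Entrez identifiers of all 10 members matched the RefSeq table.

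Genes were compared with lmFit and eBayes of limma 3.58.1 (R 4.3.3), and the procedure was tested on simulated data. The members and all 14 other gene lists were chosen with earlier results of these data known. All members are named, and from each other list up to 4 genes with the smallest unadjusted p. Any further gene was picked with its values in view. The 3 genes most like Cdh1, Cdh2 and Vim were taken by Pearson's r among genes in the upper 50% of means and of SDs. Same-numbered EKO and WT arrays did not deviate together (r = -0.07, -0.09 and -0.34 for replicates 1, 2 and 3), and the mice were not treated as pairs. With 3 arrays per group these values cannot exclude a pairing. The alternatives were a replicate block, the upper 50% of means, repeated quantile normalization, centred medians, robust variances with an intensity trend, array weights, a mean over probe sets, all probe sets, and each array left out. The number of arrays limits the precision.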

Additional observations from a re-analysis of the deposited data

How the results depend on the processing

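No measured member passed the threshold under any of the 14 alternatives. The filter to the upper 50% of means leaves out Cdh2, Snai1 and Twist1, so that 7 members were tested there and 10 in each of the others. Over 137 member differences recomputed, 130 kept their sign and 7 reversed, in Cdh1, Snai1 and Twist2. Many of the 130 could not have reversed. The replicate block, the upper 50% of means, robust variances with an intensity trend and all probe sets leave each difference itself unchanged. The mean over probe sets does the same for the 4 members with 1 probe set. With array weights Cdh1 was -0.0021. With 1 array left out Cdh1 ran from -0.10 to 0.10, Snai1 from -0.049 to 0.12 and Twist2 from -0.17 to 0.13. Over all alternatives Zeb2 ran from -0.62 to -0.38 (limma adjusted p from 0.315 to 0.998), Cdh3 from 0.27 to 0.45 (limma adjusted p from 0.476 to 0.998), Vim from -0.25 to -0.07, Cdh2 from -0.51 to -0.08, Twist1 from -0.30 to -0.09, Zeb1 from -0.32 to -0.08 and Snai2 from 0.06 to 0.13. Over all genes 1 passed with all arrays, and from 1 to 42 with 1 array left out (42 without EKO replicate 2 and 2 without WT replicate 2, the cause of which was not tested). In the fit over all probe sets 2 passed, a count of probe sets and not of genes, 1 of them the Fabp5 probe set used in the main fit. With the replicate block 1 gene passed and no call of a member changed, the limma adjusted p of Zeb2 being 0.728.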

Other observations

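For each of Cdh1, Cdh2 and Vim the 3 most alike of 4436 candidate genes were found by Pearson's r over the 6 arrays, as a description and with no p, since they are the highest of many. Those closest to Cdh1 were Brwd3 (r = 0.990), 2010315B03Rik (r = 0.976) and Yes1, a Src family kinase gene (r = 0.974). Those closest to Cdh2 were AU022252 (r = 0.994), Mettl15 (r = 0.987) and Crbn, the cereblon gene (r = 0.985). Those closest to Vim were Lyve1, a hyaluronan receptor of lymphatic vessels and some macrophages (r = 0.991), Yars2 (r = 0.990) and Dram1 (r = 0.979).

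Markers of further cell types that can carry cadherins or vimentin varied between tumours. The melanocyte gene Mlana read 8.54, 7.56 and 6.63 in EKO replicates 1, 2 and 3, against 5.10, 7.46 and 8.58 in WT replicates 1, 2 and 3, and Pmel and Tyrp1 had the same order within each genotype. The 7 measured melanocyte and Schwann cell markers had a median difference of 0.43, with S100b at -0.10, and none passed. All 8 skeletal muscle markers had lower means in EKO tumours, with a median of -1.06, but the genotypes overlapped. Their list mean was 0.13, -0.65 and -0.92 in EKO replicates 1, 2 and 3, against 2.10, -1.06 and 0.41 in WT replicates 1, 2 and 3, so that WT replicate 2 lay below every EKO tumour. WT replicate 1, the highest, was also highest for 5 of the 10 genes, and the part of muscle in those values was not tested. Of 7 T cell markers 5 had lower means in EKO tumours, with Cd3g at -0.42. Of 7 pericyte and smooth muscle markers Myh11 (-0.79) had lower and Notch3 (0.25) and Mcam (0.60) had higher means in EKO tumours, and none passed.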
